A study of Danio rerio with 4 samples.

Results

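The Hox and Pbx homeobox genes were examined in blood progenitor cells sorted from zebrafish larvae. Members were the rows of the deposited table whose symbol began with hoxa, hoxb, hoxc or hoxd and a digit, or with pbx and a digit. This rule found 55 of the 30838 rows, 49 Hox genes and 6 Pbx genes, and it used no measured value. The study compared cells of 2 groups with 2 libraries each. Sibling cells came from larvae labelled only as siblings, and mutant cells came from smu07 mutants of a series titled for slc20a1b, a sodium-dependent phosphate transporter gene. All larvae were of the AB strain, untreated, 4 days post fertilization old, and carried cd41:eGFP, a transgene that reports the thrombocyte integrin gene cd41 (listed as itga2b), and the sort kept cells of low green fluorescence. About 500 cells entered each library through whole-transcriptome amplification. The labels give neither the kind of lesion nor the number of larvae pooled, and the design text calls the sibling cells wild-type.

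Hox genes encode homeodomain transcription factors that stand in clusters, and a number in the name gives the paralog group, from anterior to posterior in the body axis. Zebrafish keep duplicated clusters, so that hoxa9a belongs to the cluster called hoxaa and hoxa9b to hoxab. Pbx proteins belong to the TALE class of homeodomain proteins and, with Meis and Pknox proteins, bind DNA together with Hox proteins. In mouse and human blood, Hoxa9, Meis1 and Pbx proteins are known for their part in stem cell self-renewal and leukaemia. In zebrafish, Cdx4 acts upstream of Hox genes in the formation of embryonic blood.

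Levels are given as TPM, a transcript measure that divides reads by gene length and sets each library to the same total. Whole reads could be recovered from the table and came to 25104341 and 26600598 in the sibling libraries as against 28275628 and 29949986 in the mutant libraries. A single read per kilobase of gene stood for 0.0452 to 0.0564 TPM. The mutant libraries had 23881 and 23978 rows above 0 and the sibling libraries 19528 and 19811. All 17 blood progenitor markers examined were above 0 in every library, although coro1a, an actin regulator gene of leukocytes, stayed at 0.673 TPM or less. The slc20a1b transcript stood at 39.3 and 42.4 TPM in sibling cells, as against 49.3 and 53.8 TPM in the mutants (log2 difference 0.33, SE 0.12, limma adjusted p = 0.0827), which does not check the genotype labels since the lesion is not given. The labels do not say whether the libraries of a group came from separate clutches or sorts, so the spread that p-values rest on may be technical. With bulk samples, fewer cells of a type and less RNA per cell cannot be told apart.

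The Pbx genes were the most abundant members. A group of 4, pbx2, pbx1b, pbx1a and pbx4, had means of 6.81 to 14.6 TPM over the 4 libraries and ranked above every Hox gene. The highest, pbx2, lay at the 86th percentile of all rows. Its levels were 16.0 and 15.5 TPM in sibling cells, as against 13.4 and 13.5 TPM in the mutants, and both sibling libraries lay above both mutant libraries. The pbx1b gene read 12.6 and 9.73 TPM in sibling cells, as against 16.1 and 12.8 TPM in the mutants, where the lower mutant library was barely above the higher sibling library. The pbx1a gene, its duplicate, read 8.19 and 7.46 TPM against 8.18 and 6.63 TPM, and the groups overlapped. The pbx4 gene, also known as lazarus and needed with Hox genes for zebrafish hindbrain patterning, read 6.47 and 4.75 TPM in sibling cells, as against 7.05 and 8.96 TPM in the mutants. In contrast, pbx3a and pbx3b stayed at 0.252 TPM or less and were at 0 in sibling replicate 2 and sibling replicate 1, respectively.

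No Pbx gene passed the test between the groups. The log2 differences, mutant minus sibling on the log2(TPM + 1) scale, were -0.22 for pbx2 (SE 0.14), 0.35 for pbx1b (SE 0.19), -0.08 for pbx1a (SE 0.18) and 0.45 for pbx4 (SE 0.22). Their limma adjusted p-values over all 12073 genes tested were 0.273, 0.214, 0.776 and 0.162. The summed level of the 6 Pbx genes was 43.4 and 37.5 TPM in sibling cells, as against 44.9 and 42.0 TPM in the mutants, so the groups overlapped. With each library left out in turn, the log2 difference of pbx4 ranged from 0.26 to 0.64.

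**Figure D1:**
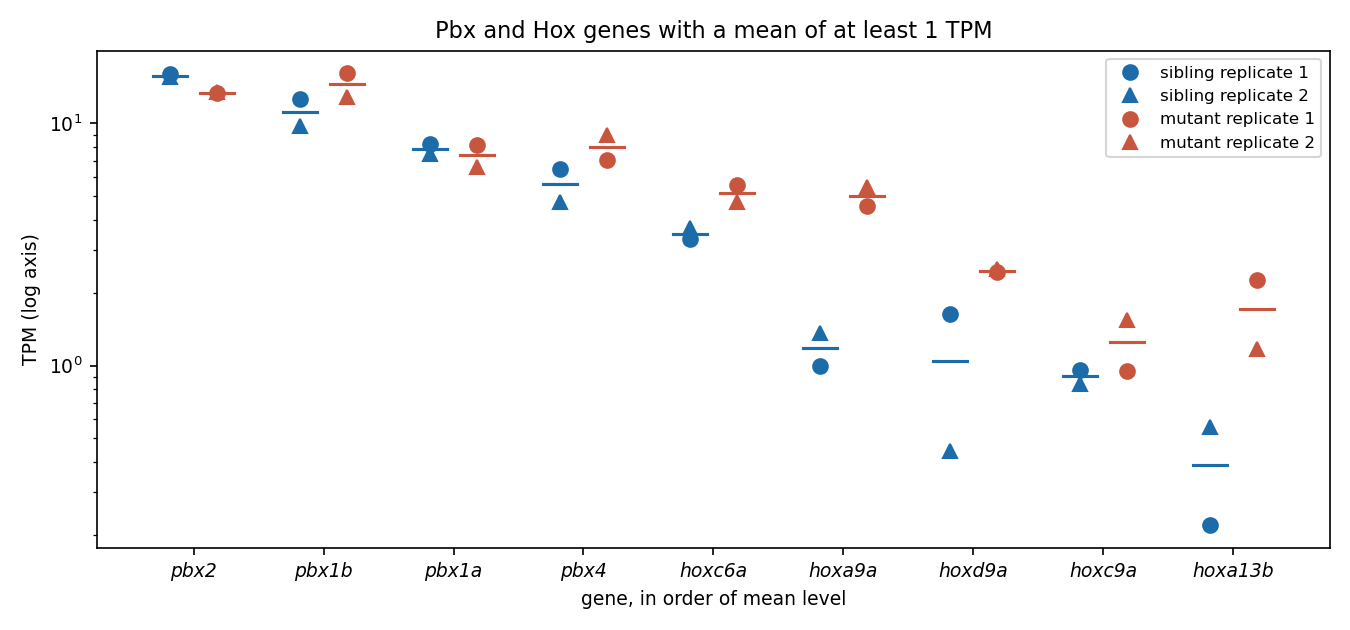
TPM on a log axis of the 4 Pbx and 5 Hox genes whose mean reached 1 TPM, in order of mean level; circles and triangles are replicates 1 and 2, horizontal bars are group means, blue is sibling and red is mutant. The groups stand apart most clearly for hoxa9a, with 1.0 and 1.36 TPM in sibling cells, as against 4.54 and 5.46 TPM in the mutants, while pbx1a and hoxc9a overlap.

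Hox transcripts were scarce. Of the 49 Hox genes 41 were above 0 in at least 1 library, 13 were above 0 in all 4 libraries, and 5 had a mean of at least 1 TPM. The median Hox gene had a mean of 0.216 TPM. Together they took 455 and 383 reads of the sibling libraries, as against 1062 and 1064 of the mutant libraries. Their summed level was 17.3 and 13.8 TPM in sibling cells, as against 30.3 and 30.1 TPM in the mutants, both mutant libraries above both siblings. Of all TPM, mt-rnr2, a ribosomal RNA of mitochondria, made up 8.22 and 8.53% in sibling cells, as against 10.1 and 12% in the mutants, and its part in the result was not tested. Reads of amplified cDNA without molecular identifiers are not independent molecules, so these counts show depth and not the number of transcripts, and limits drawn from them cover counting error only.

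The clusters differed in how much was detected. The hoxca cluster, with 11 genes, gave the largest share of Hox TPM in each library, 41.9 and 43.0% in sibling cells, as against 31.4 and 28.1% in the mutants. The hoxaa cluster, with 7 genes, followed with 17.6 and 23.7% in sibling cells, as against 20.7 and 26.5% in the mutants. From hoxab and hoxda came 1.80 and 3.19 TPM and 2.61 and 1.04 TPM in sibling cells, as against 4.48 and 4.51 TPM and 5.07 and 5.40 TPM in the mutants. The hoxba cluster, although it has 11 genes, summed to 2.48 and 0.374 TPM in sibling cells, as against 2.98 and 2.28 TPM in the mutants. Nearly all of the first of these values was hoxb4a. The hoxcb cluster exceeded 1 TPM in sum in both mutant libraries and neither sibling library, with 0.133 and 0 TPM in sibling cells, as against 2.0 and 1.46 TPM in the mutants. All 4 genes of hoxbb (hoxb1b, hoxb5b, hoxb6b and hoxb8b) were listed at 0 in every library. The other 4 genes at 0 throughout were hoxc1a and, at the posterior end, hoxa13a, hoxc13b and hoxd13a.

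**Figure D2:**
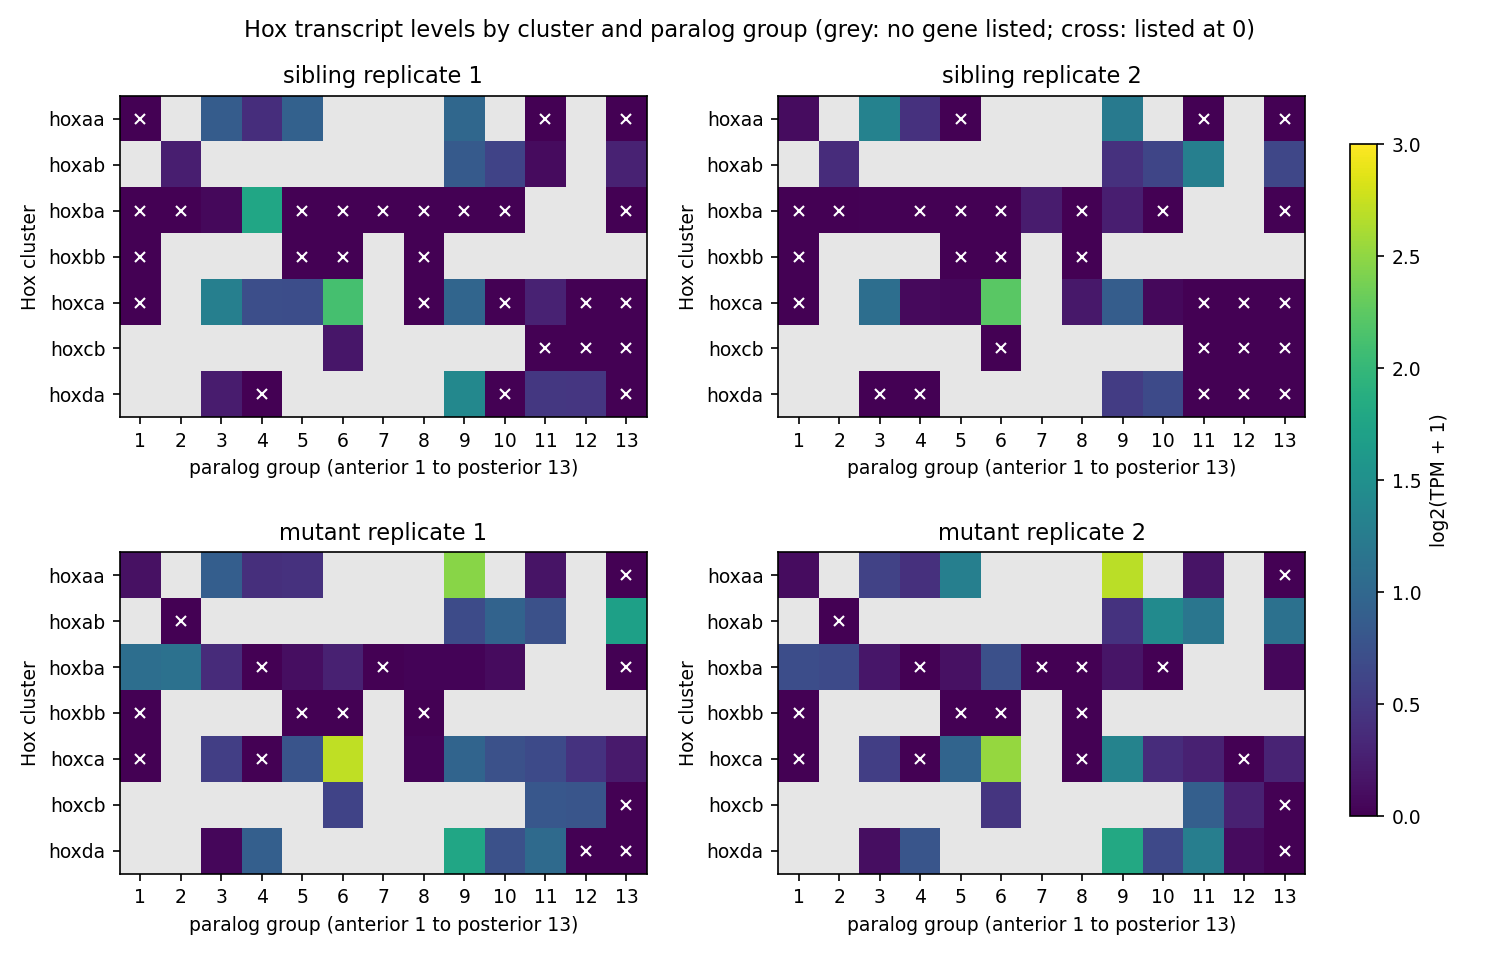
Level of each Hox gene as log2(TPM + 1), by colour, in each of the 4 libraries; rows are clusters, columns are paralog groups from anterior (1) to posterior (13), grey cells have no gene in the table and a white cross marks a gene listed at 0. The brightest cells are hoxc6a in every library and hoxa9a in the mutant libraries, and the hoxbb row is at 0 throughout.

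The highest Hox gene was hoxc6a, a member of a central paralog group known from trunk patterning, with a mean of 4.33 TPM. It read 3.32 and 3.71 TPM in sibling cells, as against 5.56 and 4.74 TPM in the mutants, from 41, 48, 81 and 73 reads. Both mutant libraries lay above both siblings, and the difference did not pass (log2 difference 0.44, SE 0.19, limma adjusted p = 0.13). Only hoxc6a and hoxa9a exceeded 1 TPM in all 4 libraries.

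Of the 9 members with a mean of at least 1 TPM, 1 rose and 0 fell in the mutants. Among all 12073 genes tested, 9.91% were called higher and 18.6% lower (28.5% in either direction), so a single call among 9 genes is near the background. The calls over all genes were 1196 higher and 2247 lower, against 1397 and 1656 under median-of-ratios scaling and 1329 and 1390 under quantile normalization. Of these 9 members 3 had an unadjusted p under 0.05, all higher in the mutants, where 15.1% of all genes tested were higher and 28.3% lower at that threshold. Of the 9 members 6 had both mutant libraries above both siblings, against 26.0% of genes tested, and 1 had the reverse, against 44.0%. The 3 and the 6 members both include hoxa13b, which was tested only because of its mutant levels.

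The gene called was hoxa9a, a posterior group gene whose mammalian counterpart acts in blood stem cells and whose overexpression in zebrafish restores blood in cdx4 mutants. It read 1.0 and 1.36 TPM in sibling cells, as against 4.54 and 5.46 TPM in the mutants. The values came from 31 and 44 reads in sibling cells, as against 166 and 211 in the mutants, on a length of 1746 bases. The groups stood far apart beside the spread within each, 1.18 ± 0.251 TPM against 5.0 ± 0.651 TPM (SD, n = 2 per group). Its log2 difference was 1.46 (SE 0.22, limma adjusted p = 0.00923), and 2.15 with limma's voom on the recovered reads of the same genes (adjusted p = 0.00888). The call ended without mutant replicate 1 (log2 difference 1.57, limma adjusted p = 0.126, unadjusted p = 0.00938) and without mutant replicate 2 (1.35, limma adjusted p = 0.126, unadjusted p = 0.0157), settings that left 4 and 3 calls among all genes. Its duplicate hoxa9b read 0.804 and 0.341 TPM in sibling cells, as against 0.605 and 0.358 TPM in the mutants, with overlapping groups. Reads that fit both duplicates could be split or lost in counting, and how such reads were treated is not given in the sources used here.

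The other posterior genes tested were hoxd9a, hoxc9a and hoxa13b. The hoxd9a gene read 1.64 and 0.443 TPM in sibling cells, as against 2.43 and 2.50 TPM in the mutants, and the difference did not pass (log2 difference 0.83, SE 0.33, limma adjusted p = 0.107). Its sibling libraries were far apart, and the difference ranged from 0.39 without sibling replicate 2 to 1.26 without sibling replicate 1. The hoxa13b gene, which belongs to the group known from fin and hindgut development, read 0.219 and 0.558 TPM in sibling cells, as against 2.26 and 1.17 TPM in the mutants. Its difference of 0.95 (SE 0.30) missed the threshold (limma adjusted p = 0.0589), and ranged from 0.66 to 1.24 with each library left out in turn. With a sibling mean of 0.388 TPM, hoxa13b was tested only because of its mutant levels. The hoxc9a gene stood at 0.963 and 0.842 TPM in sibling cells, as against 0.951 and 1.54 TPM in the mutants, and the groups overlapped (log2 difference 0.23, SE 0.25, limma adjusted p = 0.513).

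Summed by position along the clusters, Hox levels were furthest apart between the groups among posterior genes. The 23 genes of groups 9 to 13 summed to 6.24 and 6.36 TPM in sibling cells, as against 17.6 and 18.2 TPM in the mutants. The 2 libraries of each group were close to each other here. Without hoxa9a the posterior sums were 5.23 and 5.01 TPM against 13.1 and 12.8 TPM. The 16 central genes of groups 4 to 8 summed to 8.39 and 4.46 TPM in sibling cells, as against 8.68 and 9.34 TPM in the mutants, and the sibling libraries differed from each other by more than the group means did. The 10 anterior genes of groups 1 to 3 summed to 2.69 and 3.01 TPM in sibling cells, as against 4.04 and 2.50 TPM in the mutants, and the groups overlapped. Posterior genes made up 36.0 and 46.0% of Hox TPM in sibling cells, as against 58.0 and 60.6% in the mutants. Counted by gene, both mutant libraries lay above both siblings for 10 of the 20 posterior genes above 0, for 6 of 13 central genes and for 4 of 8 anterior genes. The same held for 35.0% of all rows above 0 and for 42.7% of those with a mean under 1 TPM. The difference between classes was not tested. Over all 14032 rows with a mean above 0 and under 1 TPM, where most Hox genes lie, the sums were 2442 and 2540 TPM in sibling cells, as against 3704 and 3678 TPM in the mutants.

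**Figure D3:**
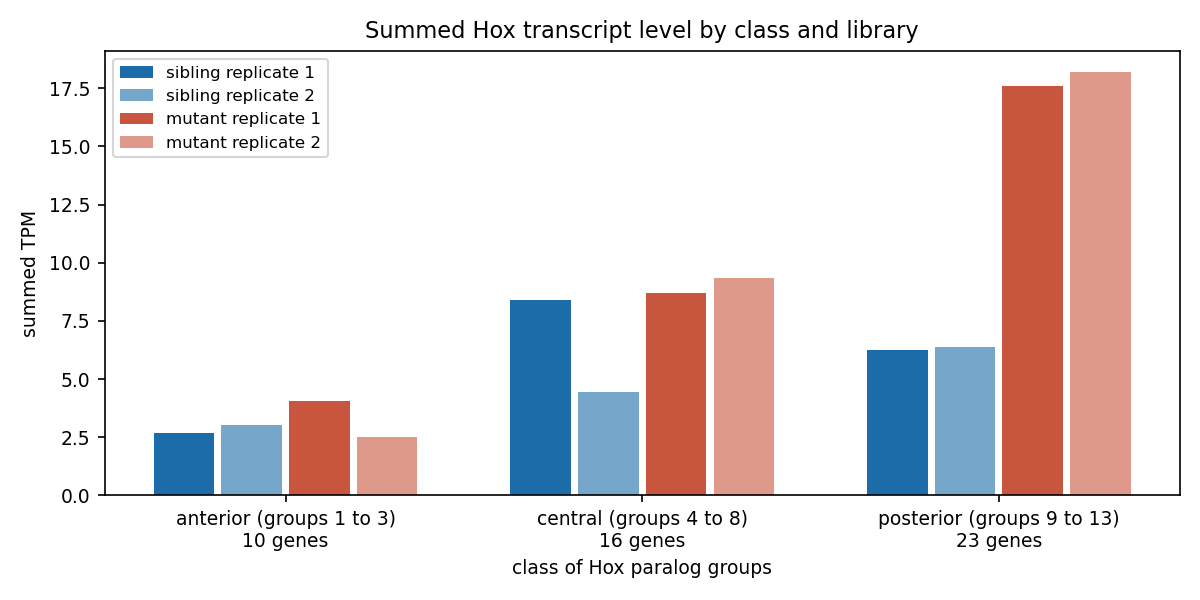
Summed TPM of anterior, central and posterior Hox genes in each library, blue for sibling and red for mutant, with replicate 2 in the paler shade and bars starting at 0. Posterior sums are 6.24 and 6.36 TPM in sibling cells, as against 17.6 and 18.2 TPM in the mutants, while the anterior sums of the groups overlap.

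More Hox genes were detected in the mutant libraries. The number of Hox genes above 0 was 22 and 21 in sibling cells, as against 35 and 33 in the mutants. With the reads of each library thinned to the smallest total, 34.6 and 32.7 Hox genes would be expected in the mutant libraries. Of all rows, 63.3 and 64.2% were above 0 in sibling cells, as against 77.4 and 77.8% in the mutants. For Hox genes these shares were 44.9 and 42.9% against 71.4 and 67.3%. Hox genes are mostly low, so rows of like level are the closer comparison. Of the 36 Hox genes above 0 with a mean under 1 TPM, 10 were above 0 in both siblings and 26 in both mutants. Of all 14032 rows at that level, 5434 were above 0 in both siblings and 10749 in both mutants.

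Both mutant libraries and neither sibling library were above 0 for 9 Hox genes, 22.0% of the 41 above 0. The same held for 10.6% of all rows above 0. All 9 have a mean under 1 TPM, where they were 25% of the 36 Hox genes, against 19.4% of all rows at that level. With at least 3 recovered reads, which are minima, required in both mutants, 8 Hox genes remained. These were 22.2% of Hox genes with a mean under 1 TPM, against 10.3% of all rows at that level. The 9 genes were hoxb1a, hoxb2a, hoxb5a, hoxb6a, hoxd4a, hoxa11a, hoxc11b, hoxc12b and hoxc13a. The reverse pattern, above 0 in both siblings and neither mutant, was seen for hoxa2b and hoxc4a. These were 4.88% of the Hox genes above 0, against 0.762% of all rows above 0. Among Hox genes with a mean under 1 TPM they were 5.56%, against 1.36% of all rows at that level.

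From hoxc11b, a posterior gene, came 0 reads in both siblings and 74 and 91 reads in the mutants (0.752 and 0.875 TPM). In the siblings 3 reads would have stood for 0.0360 and 0.0343 TPM, below the mutant levels. At the recovered lengths, which are minima, the same floor was above at least 1 mutant level for hoxb5a, hoxb6a and hoxc13a. The hindbrain genes hoxb1a and hoxb2a, neighbours at the anterior end of hoxba, had 25 and 15 reads (1.12 and 0.634 TPM) and 45 and 24 reads (1.17 and 0.592 TPM) in the mutants and 0 in the siblings. For hoxd4a there were 23 and 20 reads (0.880 and 0.725 TPM) in the mutants and 0 in the siblings. All of these genes had a mean under 1 TPM and were not among the 12073 tested. Limma's voom on rows with at least 20 reads in all, an analysis chosen after the data were seen, called hoxb1a, hoxb2a, hoxd4a, hoxa11a and hoxc11b higher beside hoxa9a, with adjusted p-values of 0.0297, 0.0231, 0.0241, 0.0419, 0.00997 and 0.0178. Apart from hoxa9a these genes had 0 reads in the siblings and reached 20 reads through the mutants alone, so the filter fixed their direction and the 6 calls among 32 members are a description. Of the 19059 rows, 11.6% were called higher and 9.57% lower. With no filter on low values limma called hoxa9a, hoxd4a, hoxc11b and hoxc13a higher (adjusted p = 0.0443, 0.0400, 0.0400 and 0.0498), 4 of 47 members, where 5.06% of the 26105 rows were called higher and 4.31% lower. Apart from hoxa9a these genes too had 0 reads in the siblings and could only be called higher, so the 4 calls are a description. The call of hoxc13a rests on 2 and 3 recovered reads, which are minima. If these numbers are exact, its levels are ones that 0 reads in the siblings allow.

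Over the 41 Hox genes above 0, both mutant libraries lay above both siblings for 20 (35.0% of all rows above 0) and both siblings above both mutants for 3 (25.5% of all rows above 0). Among the 36 with a mean under 1 TPM these shares were 44.4 and 8.33%, near the 42.7 and 9.62% of all rows at that level. As each library was left out in turn the first count ranged from 23 to 25, the lone library of a group being easier to clear. The 3 genes higher in both siblings were hoxc3a, hoxa2b and hoxc4a. The hoxc3a gene, an anterior group gene, read 1.46 and 1.12 TPM in sibling cells, as against 0.468 and 0.471 TPM in the mutants, from 82, 66, 31 and 33 reads, and did not pass with voom (log2 difference -1.36, SE 0.46, adjusted p = 0.0754). The hoxa2b gene, known from hindbrain and neural crest patterning, had 3 and 5 reads in sibling cells, as against 0 in the mutants.

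Paralog group 4 was uneven between libraries. The hoxb4a gene, whose mammalian counterpart expands blood stem cells when overexpressed, had 32 reads and 2.43 TPM in sibling replicate 1 and was at 0 in the other 3 libraries. The hoxc4a gene had 35 and 3 reads in the siblings (0.649 and 0.0531 TPM) and 0 in the mutants. By contrast, hoxa4a was even, at 0.310 and 0.349 TPM in sibling cells, as against 0.325 and 0.337 TPM in the mutants. Of the 41 Hox genes above 0, 31.7% were found in only 1 of the 2 siblings and 14.6% in only 1 of the 2 mutants, against 18.0 and 8.65% of all rows above 0. Under a mean of 1 TPM the shares were 36.1 and 16.7% for Hox genes and 32.4 and 16.0% for all rows.

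Further Hox genes reached 1 TPM in a library without reaching it on average. The hoxa3a gene read 0.828 and 1.51 TPM in sibling cells, as against 0.861 and 0.513 TPM in the mutants, with overlap. From hoxa10b came 0.520 and 0.544 TPM in sibling cells, as against 0.944 and 1.71 TPM in the mutants. The hoxa11b gene read 0.0661 and 1.45 TPM against 0.672 and 1.27 TPM, and the sibling libraries differed more than the groups did. The hoxd11a gene was at 0.400 and 0 TPM in sibling cells, as against 1.05 and 1.44 TPM in the mutants. The hoxa5a gene read 0.906 and 0 TPM in sibling cells, as against 0.349 and 1.45 TPM in the mutants. The genes that follow stayed under 1 TPM in every library. In hoxcb, hoxc6b was at 0.133 and 0 TPM in sibling cells, as against 0.519 and 0.374 TPM in the mutants, and hoxc12b at 0 against 0.728 and 0.212 TPM. The hoxc5a gene read 0.638 and 0.0406 TPM in sibling cells, as against 0.720 and 0.954 TPM in the mutants. The hoxd10a gene was at 0 and 0.595 TPM against 0.675 and 0.583 TPM, hoxc10a at 0 and 0.0454 TPM against 0.671 and 0.305 TPM, and hoxc11a at 0.224 and 0 TPM against 0.6 and 0.209 TPM. A last group of 10 genes, hoxa1a, hoxb7a, hoxb8a, hoxb9a, hoxb10a, hoxb13a, hoxc8a, hoxc12a, hoxd3a and hoxd12a, stayed at 0.395 TPM or less in every library. Hox transcripts of a cluster can overlap, and the strand setting of the counting is not given in the sources used here, so a low count can belong to a neighbour. The length recovered for hoxb3a, 10874 bases, was the longest among the Hox genes, and it had 9, 3, 67 and 32 reads.

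Of 10 TALE partner genes 6 were tested, of which 1 rose, 1 fell and 4 did not pass, with a median log2 difference of -0.33 against -0.14 over all genes tested. The most abundant was meis1b, the partner best known from blood progenitors, at 42.1 and 38.4 TPM in sibling cells, as against 31.5 and 28.6 TPM in the mutants (log2 difference -0.41, SE 0.13, limma adjusted p = 0.0555). The gene pknox1.1, which encodes a TALE partner of Pbx, fell from 10.9 and 11.8 TPM to 6.28 and 6.0 TPM (log2 difference -0.79, limma adjusted p = 0.0187). Its relative pknox2 rose from 1.68 and 1.75 TPM to 4.04 and 3.21 TPM (0.76, adjusted p = 0.0423). The duplicate meis1a stayed at 0.637 TPM or less.

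Upstream regulators were mostly low. Of 17 Cdx and retinoic acid genes 6 were tested, 1 rose and 0 fell, with a median log2 difference of 0.24. The retinoic acid receptor gene rarga, the most abundant, rose from 10.1 and 8.73 TPM to 18.4 and 16.9 TPM (log2 difference 0.85, SE 0.15, limma adjusted p = 0.0144). Both cdx4 and cdx1a were listed at 0 in both siblings and read 0.669 and 0.385 TPM and 0.389 and 0.245 TPM in the mutants. In the other direction, dhrs3b, also not tested, read 1.23 and 0.782 TPM in sibling cells, as against 0.0578 and 0.109 TPM in the mutants. Its levels came from 18, 12, 1 and 2 reads. The retinoic acid synthesis gene aldh1a2 was listed at 0 in all 4 libraries.

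Genes of the chromatin complexes that keep Hox genes on (MLL) or off (Polycomb) were mostly lower in the mutants where they were called. The same held among all genes tested, of which 9.91% were called higher and 18.6% lower. The Polycomb gene cbx7b was listed at 0 in all 4 libraries and the MLL gene aff1 in both siblings. Of the MLL list, 17 of 19 genes were tested, 1 rose and 5 fell, with a median log2 difference of -0.18. Those that fell were wdr5 and ash2l, core subunits (by 0.76 and 0.49 on the log2 scale), kat7b, an acetyltransferase gene (by 0.73), mllt1b (by 0.71) and men1, the gene of menin, which joins MLL to chromatin (by 0.64). The super elongation complex gene aff4 rose from 6.37 and 6.11 TPM to 11.5 and 11 TPM. The gene of the MLL methyltransferase itself, kmt2a, read 3.83 and 3.96 TPM against 4.27 and 4.53 TPM and did not pass (limma adjusted p = 0.584). The most abundant gene, dpy30, read 155 and 163 TPM against 141 and 162 TPM.

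The Polycomb list also holds the demethylase genes kdm6a, kdm6ba and kdm6bb, as well as ring1, which had no row. Of its 29 genes 25 were tested, 1 rose and 6 fell, with a median log2 difference of -0.32. The PRC2 accessory gene phf19 fell from 4.38 and 3.65 TPM to 0.988 and 0.967 TPM (log2 difference -1.34, SE 0.21, limma adjusted p = 0.0105). Its mutant mean alone would not have reached 1 TPM. Among PRC2 core genes, suz12a, ezh2 and eed fell by 0.94, 0.53 and 0.46 on the log2 scale, rnf2 of PRC1 fell by 0.69, and rbbp4, the most abundant at 284 and 252 TPM in the siblings, fell by 0.39. The demethylase gene kdm6ba, which removes the Polycomb mark, rose from 24.0 and 21.5 TPM to 47.9 and 42.1 TPM (log2 difference 0.96, SE 0.13, limma adjusted p = 0.00841). Over the 4 lists 4 of 54 genes rose and 12 fell, 29.6% in all, close to the 28.5% called among all genes (9.91% higher and 18.6% lower). Under quantile normalization 3 rose and 5 fell, under median-of-ratios scaling 4 rose and 8 fell, and with voom on the same genes 7 rose and 11 fell. Without mutant replicate 1, and without mutant replicate 2, limma called 0 of these 54 genes, as it called 4 and 3 among all genes.

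**Figure D4:**
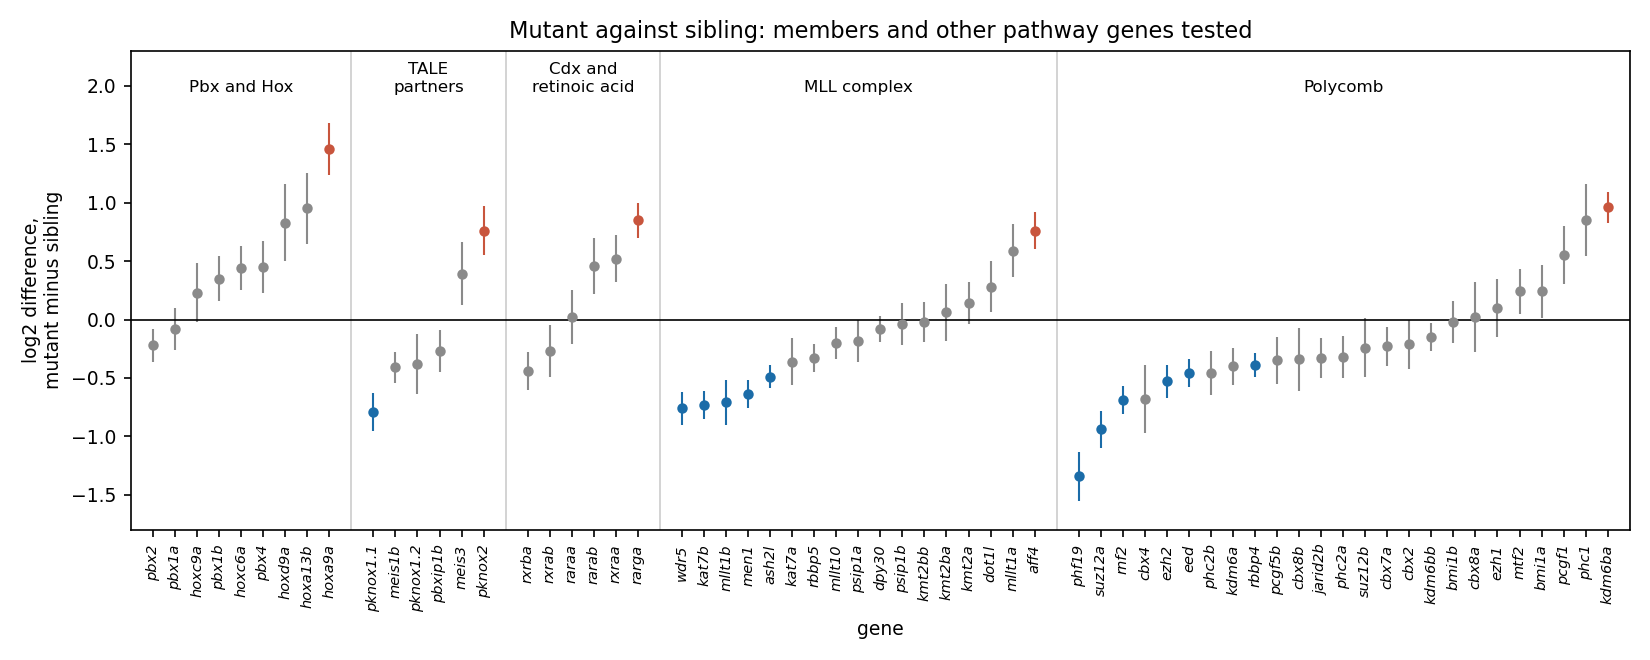
Log2 difference, mutant minus sibling on the log2(TPM + 1) scale, with its standard error for the 9 members tested and the tested genes of the 4 other lists; red was called higher, blue was called lower and grey did not pass. In the first block hoxa9a, at 1.46, is the call, and 12 of the 16 calls in the other blocks lie below 0.

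Summed levels of markers of other larval cell types, many of which use Hox genes, also differed between the libraries. Keratinocyte markers (11 of 12 above 0 in some library) summed to 44.3 and 32.6 TPM in sibling cells, as against 259 and 167 TPM in the mutants, mostly icn, while epcam was at 0 throughout. Among these markers tp63 read 0.123 and 0.461 TPM in sibling cells, as against 0.321 and 0.289 TPM in the mutants, with overlap. Of the keratinocyte markers icn rose, from 43.2 and 27.6 TPM to 179 and 113 TPM (limma adjusted p = 0.00837). The others called had a sibling mean under 1 TPM and were tested only because of their mutant levels, which also holds for the called markers of fibroblasts and cartilage other than sox9a, of pronephros and of muscle, so their counts are not given. Fibroblast and cartilage markers (11 of 13) summed to 6.76 and 29.6 TPM against 37.5 and 27.6 TPM, with sox9a highest on average and twist1a at 23 TPM in sibling replicate 2, with col1a1a and col2a1a at 0 throughout. The sox9a gene rose from 2.65 and 3.83 TPM to 15.1 and 12.6 TPM (limma adjusted p = 0.00628). In the other direction, matn1, which was not tested, read 0.272 and 1.84 TPM in sibling cells, as against 0.046 and 0.0871 TPM in the mutants. For twist1a and prrx1b the groups overlapped. Neural markers (11 of 12) summed to 6.30 and 10.3 TPM against 19.8 and 15.6 TPM, with tubb5 highest in each library. It rose from 2.92 and 6.74 TPM to 16.8 and 12.6 TPM (limma adjusted p = 0.0258), which was most of the sum in the mutants. Of the lower neural markers, elavl3, snap25a and neurod1 had both mutant libraries above both siblings. The reverse held for stmn1b (1.08 and 0.194 TPM against 0.0287 and 0.0271 TPM) and isl1 (0.143 and 1.23 TPM against 0.0809 and 0 TPM). The neuronal gene elavl3 stayed at 0.134 TPM or less and mnx1 at 0.

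Pronephros markers (7 of 8) summed to 6.74 and 3.41 TPM in sibling cells, as against 21.4 and 13 TPM in the mutants, with trpm7 highest in the siblings and atp1a1a.4 in the mutants, and with hnf1ba at 0 throughout. Muscle markers (11 of 12) gave 6.22 and 9.95 TPM against 12.2 and 13.3 TPM, with actc1b highest in each library and ckma at 0. Gut markers (6 of 8) gave 2.72 and 1.72 TPM against 2.99 and 3.33 TPM, led by vil1, with fabp2 and gata5 at 0. Endothelial markers (11 of 12) gave 158 and 130 TPM against 97.1 and 99.9 TPM, with fli1b highest in the mutants. In the siblings sele and aqp1a.1, which fell, lay above fli1b. The endothelial genes kdrl, cdh5 and tie1 stayed at 0.147 TPM or less in every library, and lyve1b was at 0. Of the 6 endothelial markers tested 2 fell and 2 rose. Those that rose were pecam1, from 1.38 and 1.49 TPM to 4.34 and 2.99 TPM (limma adjusted p = 0.0333), and stab1. With a sibling mean of 0.917 TPM, stab1 was tested only because of its mutant levels. Of the markers not tested, flt4 had both mutant libraries above both siblings. The reverse held for stab2 (0.149 and 0.096 TPM in sibling cells, as against 0.0411 and 0.0278 TPM in the mutants). Blood progenitor markers, of which 1 rose and 7 fell of 16 tested, summed to 1682 and 1619 TPM in sibling cells, as against 1185 and 1095 TPM in the mutants, led by lcp1. Over all genes tested 9.91% were called higher and 18.6% lower. The marker that rose was runx1. For spi1b and gata2b, which did not pass, and coro1a, not tested, both mutant libraries also lay above both siblings. The spi1b gene read 88.4 and 109 TPM in sibling cells, as against 144 and 125 TPM in the mutants. For myb, gata2a, fli1a, etv6 and kita the groups overlapped. Among the 7 that fell were lcp1, from 889 and 793 TPM to 521 and 417 TPM, and itga2b, the gene reported by the sorted transgene. The level of itga2b went from 50.8 and 66.9 TPM to 23.5 and 19.3 TPM (limma adjusted p = 0.00703). Also among the 7 was gfi1aa, which had a mutant mean of 0.649 TPM and was tested only because of its sibling levels. The part of these cell types in the Hox differences was not tested.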

How the data were processed

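The authors deposited 1 table of TPM values with a column for each library. The tools and build named in its making, per the submitters' processing notes, are STAR, featureCounts, DESeq2 and FastQC, and GRCz11. Versions, annotation and strand setting were not given in the sources used here. Members and lists were chosen with earlier results of these data known. Rows with a mean of at least 1 TPM entered, as log2(TPM + 1), a linear model per gene in limma 3.58.1 (lmFit, then eBayes with a trend; R 4.3.3), with Benjamini-Hochberg adjustment over all 12073 genes and a threshold of 0.05. Fold changes on this scale understate changes of low genes. The SD of a level is over n = 2 libraries.

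Each value is a scale of its library times whole reads over a whole gene length, and all 26105 rows above 0 were solved to a relative tolerance of 1e-09. Where reads and length share a factor the solution is too low, so reads and lengths are minima. Rows above 0 in 1 library are the least certain. The recovery and the fit were tested on simulated data. There the recovery was exact for 93.02% of rows above 0, and for 96.47% of rows above 0 in all 4 libraries. No columns were identical. All 55 members matched a RefSeq symbol (GRCz12tu), used for names and gene order; no sequences were used here. A listed gene is not reported here and was left out of its list. Every member with a mean of at least 1 TPM was named, with lower members that exceeded 1 TPM in any library or led their cluster, called and most abundant pathway genes, and the most abundant marker of each list. Alternatives were other filters, scalings and pseudocounts, no trend, a replicate block, leaving out each library, and voom.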

Additional observations from a re-analysis of the deposited data

How the results depend on the processing

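The count of 1 member higher became 4 with no filter on low values, 0 with a mean of at least 5 TPM, where hoxa9a was not tested, and 6 with voom on rows with at least 20 reads, and ranged from 0 to 4 without 1 library. The count of members lower was 0 in every setting. Calls over all genes, 1196 higher and 2247 lower, became 778 higher at 5 TPM, 2208 higher with voom on rows with at least 20 reads, 1124 lower with no filter and 1390 lower under quantile normalization. Without 1 library they ranged from 0 to 2044 higher and from 3 to 3206 lower, over the same genes tested, with 4 and 3 calls in all without mutant replicates 1 and 2; the lone library of a group is then assumed to vary like the other group. Pathway genes called, 4 higher and 12 lower, became 7 and 8 higher with voom on the same genes and on rows with at least 20 reads, and 5 lower under quantile normalization, and ranged from 0 to 8 and from 0 to 15 without 1 library. The cause was not tested. The log2 difference of pbx1a, -0.08, was 0.01 under median-of-ratios scaling, 0.03 under quantile normalization and ranged from -0.21 to 0.06 without 1 library, above 0 without mutant replicate 2. Over its alternatives hoxa9a ranged from 1.34 to 2.15, with adjusted p from 0.000678 to 0.126. Of 112 recomputed differences of named members, 103 kept direction and side of the threshold. Median-of-ratios and quantile scaling each moved the median of all genes by 0.09. The replicate numbers are not stated to pair libraries, and deviations of same-numbered libraries correlated at r = -0.046 over 12073 genes; with them as a replicate block 1 member was called higher and 0 lower, and 981 genes were higher and 1682 lower. A count of 0 allows up to 3 reads, so in a library at 0 a level under that floor cannot be told from absence.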

Other observations

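The genes that flank the Hox clusters stood at higher levels in the median than the Hox genes, and 13 of 28 lay above the highest Hox gene. For each of the 7 clusters the 2 nearest named protein-coding genes on either side in the RefSeq order were taken, 28 in all. Of these 20 had a mean of at least 1 TPM, against 5 of 49 Hox genes, and their median was 3.33 TPM, against 0.216 TPM for the Hox genes. Beside hoxca stood cbx5, a heterochromatin protein gene, at 136 and 132 TPM in sibling cells, as against 91.2 and 101 TPM in the mutants, and beside hoxab stood skap2, an adaptor gene of blood cells, at 50.5 and 56.3 TPM against 41.5 and 41.5 TPM. Of the 20 flanking genes tested 4 rose and 2 fell, 30% in all, near the 28.5% of all genes tested. The sorting nexin gene snx10a beside hoxaa rose from 21.2 and 45.7 TPM to 79.8 and 71.9 TPM (log2 difference 1.25, limma adjusted p = 0.0372), and nr1d4a beside hoxca from 0.310 and 0.698 TPM to 5.05 and 4.33 TPM (1.93, adjusted p = 0.00693). With sibling means under 1 TPM, nr1d4a and smug1, another of the 4, were tested only because of their mutant levels. The even-skipped relatives evx1 and evx2 at the posterior ends of hoxaa and hoxda were listed at 0 in both siblings and read 0.0376 TPM or less in the mutants, while eve1 beside hoxba read 0.0953 and 0 TPM against 0.0269 and 0.0764 TPM.

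Of the 8 miRNA genes with a row inside a Hox cluster, 6 were listed at 0 in every library. The exceptions were mir196d, which lies between hoxa10b and hoxa9b and read 0 and 1.49 TPM in sibling cells, as against 0.663 and 4.39 TPM in the mutants, and mir10b-1, which was above 0 in mutant replicate 2 alone. The levels of mir196d rest on 0, 2, 1 and 7 reads over a recovered length of 72 bases. That of mir10b-1 rests on 1 read over 26 bases, and both numbers are minima. Whether these reads belong to the host Hox transcripts was not tested.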
